A study of Rattus norvegicus with 42 samples.

Results

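The genes described here are the 64 forkhead (Fox), Sox, T-box (Tbx), Gata and Krüppel-like (Klf) transcription factor genes with a probe set on a rat expression array, of 14218 genes on it. They were chosen by a pattern of symbols, leaving out Foxp2, Sox17, Sox18, Tbx18, Gata1 and Klf9, which fit the pattern. The reason for leaving these out is not stated. Each member was read from 1 probe set, the one with the highest mean over all arrays. There were 29 Fox, 13 Klf, 12 Sox, 5 Gata and 5 Tbx genes. The tissue was rat metanephric mesenchyme, the kidney's mesenchymal rudiment, dissected at embryonic day 13.5 and freed of the ureteric bud with trypsin and DNase. The sources used here do not name the rat strain.

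There were 42 arrays in 21 groups of 2 biological replicates. The fresh group was mesenchyme taken without culture (day 0). The control groups were mesenchyme cultured without inducer for 1 or 2 days. The other 18 groups were cultured with LIF, NGAL or ANX for 1, 2, 3, 4, 5 or 7 days. LIF is leukemia inhibitory factor, a cytokine of the interleukin-6 family. NGAL is lipocalin 2, a secreted carrier of iron-binding siderophores. ANX is called a fraction by the submitters, and the sources used here do not say what it holds. All cultures, controls included, grew on collagen-coated filters in DMEM/F12 medium supplemented with an FGF, a TGF, dexamethasone, T3, a prostaglandin, insulin, selenium and transferrin, so a difference from fresh tissue is a difference from dissection plus this medium. Whether the 2 replicates came from separate litters is not given, so p-values measure the spread within such pairs.

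The families differ in the domain that binds DNA. Fox proteins use a winged helix, Sox proteins an HMG box that bends DNA, Tbx proteins the T-box, and Gata and Klf proteins zinc fingers. In the kidney rudiment, Foxc1, Foxc2 and Foxd2 are known from the mesenchyme, Sox4 and Sox11 from progenitors, Gata3 from the ureteric bud lineage, Gata2 and Sox7 from vessels and blood, and Klf4, Klf5 and Klf15 from epithelia or podocytes. Foxo proteins are held in the cytoplasm by insulin signaling, and Foxm1 drives genes of mitosis.

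The stretches before the start sites of 3 genes that changed in many comparisons are shown, because Klf4, Foxd2 and Klf15 each moved with culture, inducer or time. Foxo3 and Foxm1 (called in 7 comparisons each) and Sox7 (in 5) were picked too, but had no promoter entry in the sources used here. Each is the 250 bases upstream of the RefSeq start on GRCr8, written 5′ to 3′ on the gene's strand, with motif matches in capitals. Klf4 lies at chr5:75078593-75078842 (minus strand), Foxd2 at chr5:133667484-133667733 (minus strand) and Klf15 at chr4:124522765-124523014 (plus strand).
Klf4: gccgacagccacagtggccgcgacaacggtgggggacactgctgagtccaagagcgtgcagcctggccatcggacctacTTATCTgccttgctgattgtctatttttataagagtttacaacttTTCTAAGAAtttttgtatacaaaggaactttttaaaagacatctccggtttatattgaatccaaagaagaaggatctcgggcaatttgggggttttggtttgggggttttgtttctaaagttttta
Foxd2: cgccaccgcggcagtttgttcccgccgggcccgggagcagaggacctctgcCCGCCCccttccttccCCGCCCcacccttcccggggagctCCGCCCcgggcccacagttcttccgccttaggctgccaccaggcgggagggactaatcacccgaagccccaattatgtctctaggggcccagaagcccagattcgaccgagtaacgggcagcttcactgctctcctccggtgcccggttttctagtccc
Klf15: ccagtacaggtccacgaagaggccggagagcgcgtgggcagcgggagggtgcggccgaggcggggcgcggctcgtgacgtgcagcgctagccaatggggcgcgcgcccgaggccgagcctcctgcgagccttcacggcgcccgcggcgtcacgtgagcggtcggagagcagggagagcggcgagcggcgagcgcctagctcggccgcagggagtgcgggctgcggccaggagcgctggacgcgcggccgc

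The capitals mark exact matches, on either strand, to 8 motifs that were searched. The forkhead motif GTAAACA stood in 1 of the 44 member promoters found in RefSeq (2.27%), beside 2.98% of 21842 protein-coding promoters and 3.21% of all 33469. The SOX motif AACAAT was found in 4 (9.09%), beside 8.91% and 10.3%. The motif of the GATA family, AGATAA, was found in 2 (4.55%), beside 9.17% and 10.3%. For the T-box motif AGGTGTGA the count was 1 (2.27%), beside 0.939% and 0.959%. For the KLF motif GGGTGTG it was 6 (13.6%), beside 6.41% and 6.12%. The GC box GGGCGG, to which Sp and Klf proteins bind, was in 23 (52.3%), beside 38.9% and 30.5%. The cell cycle repeat (CHR) TTTGAA was in 4 (9.09%), beside 15.2% and 16.2%. The STAT motif TTCNNNGAA was in 2 (4.55%), beside 7.29% and 7.67%. Klf4 held a GATA match from -171 to -166 and a STAT match from -126 to -118 relative to the start. Foxd2 held 3 GC boxes, and Klf15 held none of the 8 motifs. A match is a description of letters and says nothing of binding.

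Levels are given as log2 of the array intensity. Array medians lay between 83.3 and 88.4 in intensity, and replicate pairs correlated at 0.967 to 0.996 across genes. A gene was tested where at least 1 group mean lay above a log2 level of 5.79, the 40th percentile, which left 11388 genes and 45 of the 64 factors. The number of arrays limits the precision. The mesenchyme label was set against 9 measured progenitor markers, of which 0 to 2 lay below that level in any group, while 7 of 9 ureteric bud markers lay below it in fresh tissue. On day 7 of induced culture only 3 of those 9 lay below it, and Cdh1 and Epcam had risen under each inducer.

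The factors differed widely in how far they moved between groups. The range of group means over the 21 groups had a median of 0.92 on the log2 scale over the 45 tested factors and 0.73 over all tested genes, beside a median standard deviation between replicates of 0.227 for the factors. Of the 45, 12 were highest in fresh tissue, among them Foxd2, Foxm1, Klf4 and Gata2, and 4 were lowest there: Foxo4, Klf10, Klf13 and Klf5. The mean level of 32 of them lay above the threshold in every group. In the 11 comparisons below, 35 of the 45 passed at least once. The 10 that never did, in the probe set read for each, were Foxe3, Foxf1, Foxk1, Foxl2, Foxo4, Gata4, Klf2, Sox10, Tbx2 and Tbx3.

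**Figure D1:**
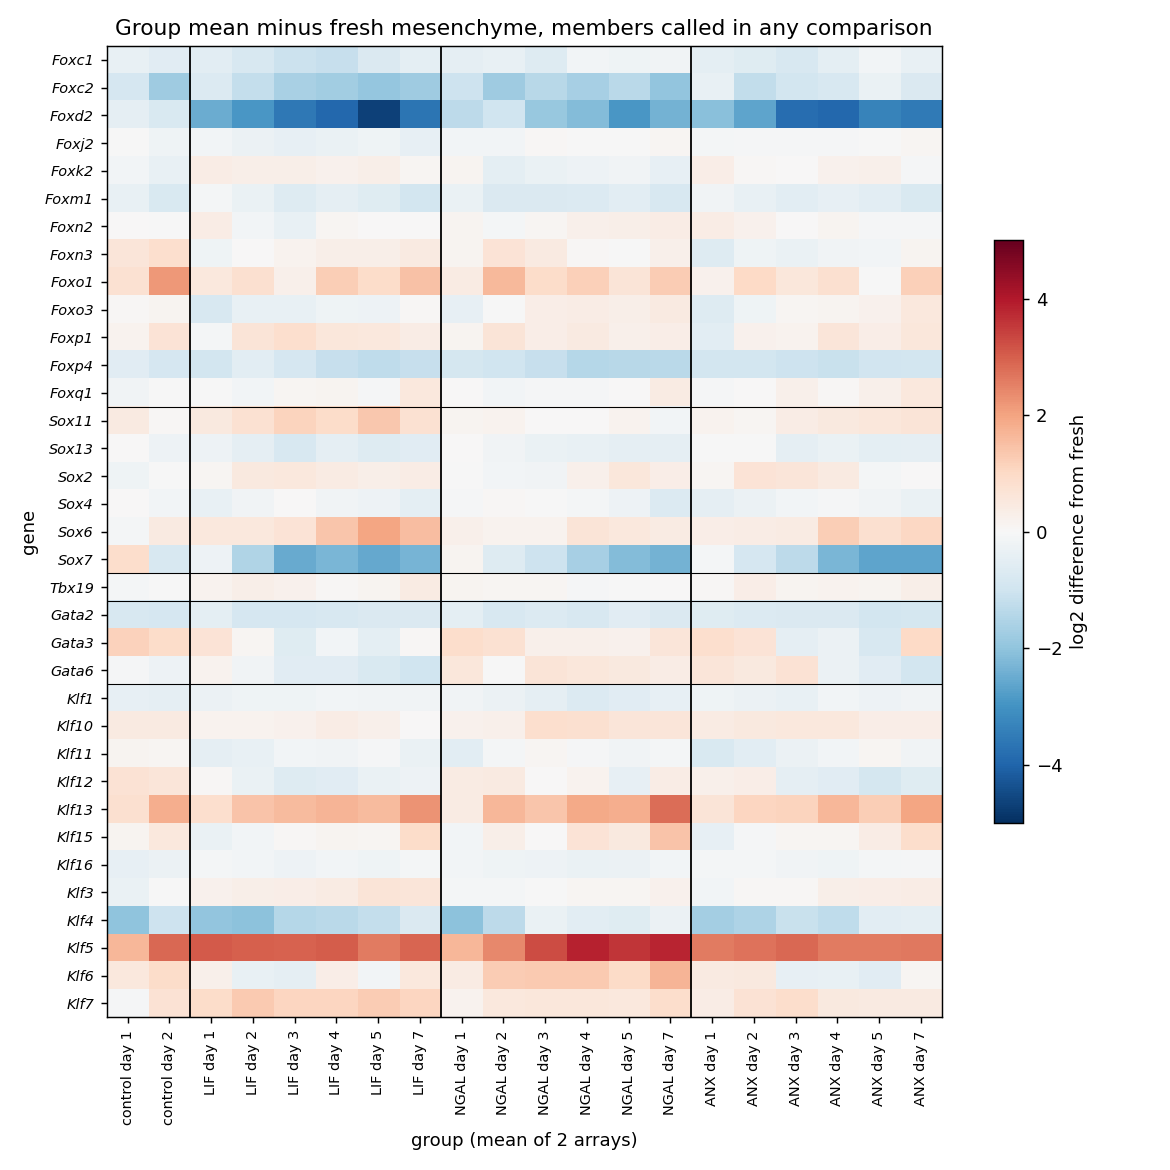
Log2 difference between each group mean (2 arrays) and fresh mesenchyme for the 35 factors called in any comparison, families separated by thin lines and treatments by thick lines. Red is higher and blue lower than fresh. Klf5 is red and Foxd2 blue in all 20 cultured groups, and Sox7 turns blue with time under each inducer.

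Culture without inducer for 1 day moved 3 Klf genes and Gata2. Klf4, a factor known from differentiating epithelia, fell from 8.97 and 8.63 in fresh tissue to 6.63 and 6.95 on control day 1. It fell by 2.01 (SE 0.29, adjusted p = 1.04e-04), or 4.03-fold, and the groups did not overlap. Klf5, a growth-linked factor of epithelia, rose from 5.71 and 5.73, both just under the threshold, to 7.50 and 7.26, a rise of 1.66 (SE 0.45, adjusted p = 0.0278), or 1.59 with the fresh mean at the threshold. Gata2, a factor of blood progenitors and vessels, fell from 6.18 and 6.52 to 5.41 and 5.69, by 0.80 (SE 0.14, adjusted p = 9.9e-04). Its control mean lay below the threshold, and with that mean set to the threshold it fell by 0.56. Klf16 fell by 0.39 (SE 0.11, adjusted p = 0.0383). In all, 4 of the 45 tested factors passed an adjusted p of 0.05 (limma with Benjamini-Hochberg adjustment, here and throughout), beside 6.06% of all tested genes. The 1 higher and 3 lower stood beside 3.80% and 2.26%.

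The Klf4 call stood whichever array was left out, while those of Klf5 (1.54 to 1.78) and Klf16 (-0.49 to -0.30) ended whichever of the 4 was left out and that of Gata2 ended without fresh replicate 2 (-0.62). Fitting only the 4 arrays compared ended the calls of Gata2 (adjusted p = 0.0598 with limma) and Klf16 (adjusted p = 0.128). The count of calls fell to 2 without fresh replicate 1 or control day 1 replicate 1 and to 1 without fresh replicate 2. With Klf5 read as the mean of its probe sets, its rise was 1.03 and did not pass. Erythroid markers moved with Gata2: 4 of 7 tested fell, and their summed intensity went from between 16680 and 18408 in fresh tissue to between 4451 and 6048. Of 11 endothelial markers 1 fell. The part of blood or vessel cells in the Gata2 result was not tested, and in these bulk samples fewer cells of a type and less RNA per cell cannot be told apart.

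By day 2 without inducer, Klf5 had risen further, and Foxm1, which drives mitotic genes, had fallen. Klf5 stood at 8.82 and 8.38, a rise of 2.88 over fresh tissue (SE 0.45, adjusted p = 1.03e-04), or 7.37-fold (2.81 with the fresh mean at the threshold). Foxm1 went from 8.46 and 8.49 to 7.75 and 7.66. It fell by 0.77 (SE 0.14, adjusted p = 5.04e-04). Gata2 read 5.51 and 5.53 and fell by 0.83 (SE 0.14, adjusted p = 2.55e-04), or fell by 0.56 with the control mean at the threshold. These 3 calls stood whichever array was left out. Klf4 had come part of the way back, at 8.04 and 7.48, and still differed from fresh by -1.04 (SE 0.29, adjusted p = 0.0123). That call ended without fresh replicate 1 (-0.88) or control day 2 replicate 2 (-0.76).

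The other calls on day 2 were rises of Foxo1, Klf13 and Foxp1 and falls of Foxc2 and Foxp4. Foxp4 fell by 0.85 (SE 0.21, adjusted p = 0.00611), a call lost without fresh replicate 1 (-0.74) or control day 2 replicate 1 (-0.82). Foxo1, an insulin-regulated factor, rose from 6.75 and 6.68 to 8.70 and 9.02, by 2.15 (SE 0.67, adjusted p = 0.0233). Klf13 rose by 1.83 (SE 0.62, adjusted p = 0.0346) and Foxp1 by 0.67 (SE 0.24, adjusted p = 0.0485), while Foxc2, a factor of nephron and vessel mesenchyme, fell by 1.76 (SE 0.55, adjusted p = 0.0234). In all, 9 of the 45 passed, beside 22.2% of all tested genes (4 higher beside 9.47% and 5 lower beside 12.7%), and the count was 4 or 5 whichever of the 4 arrays was left out.

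Foxo1, Klf13, Foxp1 and Foxc2 moved together with a technical measure, the ratio of 3′ to 5′ signal of the dap spike-in RNA, which stood at 1.06 and 1.08 (log2) on the fresh arrays and 1.97 and 2.04 on those of control day 2. The 5S ribosomal RNA probe signal moved too, from 6.32 and 6.62 to 10.1 and 10.3 (log2). With this ratio as a covariate, Foxo1 rose by 0.95, while the changes of Klf13 (0.86), Foxp1 (0.42) and Foxc2 (-0.82) no longer passed. The calls of Foxo1 (1.99 to 2.31), Klf13 (1.68 to 1.99) and Foxc2 (-1.84 to -1.69) ended whichever array was left out, and that of Foxp1 ended without fresh replicate 2 (0.39), control day 2 replicate 1 (0.56) or control day 2 replicate 2 (0.78). As the mean of its probe sets, the Foxo1 rise was 0.71. The part of the 5S signal in these results was not tested. Of the markers, 6 of 7 erythroid and 7 of 11 endothelial ones fell on day 2, and 4 of 7 of skeletal muscle rose.

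The same measure ran through the whole series. In 12 of the 21 groups the 2 replicates differed in it by more than 0.5 on the log2 scale, over an array range of 0.77 to 2.35. Foxo1 was higher in the replicate with the higher ratio in 20 of 21 groups and Gata3 in 18, while Foxf1 and Klf2 were lower there in 18 each. A count of 18 or more, either way, was met by 3.90% of all tested genes. Over the 12 groups with the wide gap, Foxo1 differed by a median of 0.99 and Klf13 by 0.94. Klf6 differed by 0.79 and Foxc2 by -0.95. Foxn3 differed by 0.59 and Sox6 by 0.54, and both were higher with the higher ratio in 12 of these 12 groups.

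**Figure D2:**
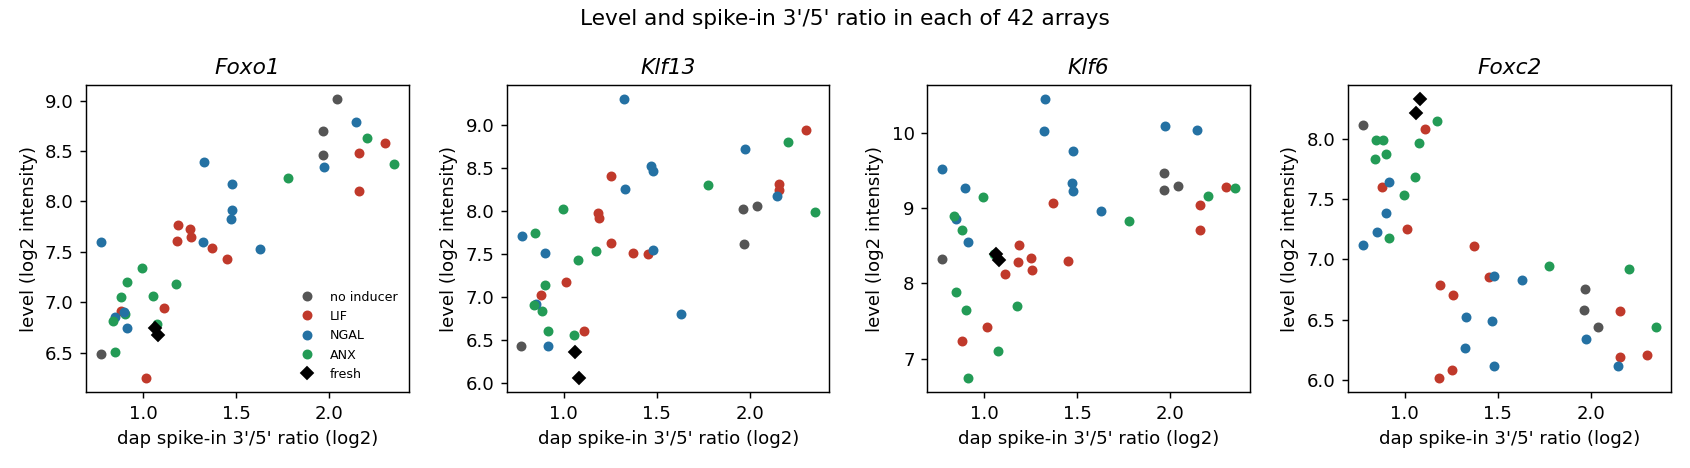
Level of Foxo1, Klf13, Klf6 and Foxc2 (log2 intensity) against the 3′ to 5′ ratio of the dap spike-in (log2) in each of the 42 arrays, colored by treatment. Arrays at the right have higher Foxo1 and lower Foxc2, and the control day 2 arrays (ratios 1.97 and 2.04) lie at the right while the fresh arrays (1.06 and 1.08) lie toward the left.

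The inducers were compared with the uninduced controls over days 1 and 2, asking what each added to culture itself. The 3 comparisons share the same 4 control arrays, so their values are given side by side. Foxd2, a forkhead factor of mesenchyme, fell most. The controls read 10.04 and 9.94 on day 1 and 9.76 and 9.59 on day 2. Under LIF it read 8.05 and 7.84, then 7.12 and 7.91. Under ANX it read 8.22 and 8.47, then 7.71 and 7.92, and under NGAL 9.22 and 9.05, then 9.49 and 9.40. All 4 LIF, all 4 ANX and all 4 NGAL arrays lay below all 4 controls. It fell by 2.10 under LIF (SE 0.33, adjusted p = 1.13e-04), or 4.29-fold. It fell by 1.75 under ANX (SE 0.33, adjusted p = 7.19e-04), or 3.37-fold. Under NGAL the difference was -0.54 (SE 0.33, adjusted p = 0.761).

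Foxo3 and Foxn3 were also lower under LIF and ANX, and Foxk2 was higher. Foxo3, an insulin-regulated factor like Foxo1, read 9.43, 9.66, 9.63 and 9.62 in the controls and 8.94, 8.44, 9.30 and 8.93 under LIF. It fell by 0.68 under LIF (SE 0.14, adjusted p = 0.00163) and by 0.53 under ANX (SE 0.14, adjusted p = 0.0127). Foxn3, a forkhead repressor, fell by 0.82 under LIF (SE 0.24, adjusted p = 0.0156) and by 1.14 under ANX (SE 0.24, adjusted p = 0.00195). Foxk2 rose by 0.58 under LIF (SE 0.13, adjusted p = 0.00206) and by 0.45 under ANX (SE 0.13, adjusted p = 0.0152). Foxm1 rose by 0.34 under LIF (SE 0.10, adjusted p = 0.0142) and by 0.28 under ANX (SE 0.10, adjusted p = 0.0455), against its fall in uninduced culture. Klf11, a repressor induced by TGF-beta, fell by 0.76 under ANX (SE 0.13, adjusted p = 2.36e-04) and by 0.54 under LIF (SE 0.13, adjusted p = 0.00388; outside the naming rule and named after its value was seen).

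Klf16 rose under LIF (0.25) and ANX (0.26), and the other calls were made under 1 inducer. LIF raised Klf7, known from neurons, from 7.03, 6.29, 7.45 and 7.41 in the controls to 7.71, 7.55, 8.12 and 7.87, a rise of 0.77 (SE 0.21, adjusted p = 0.0111). The same difference was 0.21 under ANX and 0.01 under NGAL, neither called. LIF also raised Klf3 by 0.45 and Tbx19 by 0.29 and lowered Sox7 by 0.92 (SE 0.30, adjusted p = 0.0248), Klf12 by 0.80 (SE 0.25, adjusted p = 0.0219) and Klf15 by 0.56 (SE 0.20, adjusted p = 0.0462). With means at the threshold Klf15 fell by 0.13. ANX raised Sox2 by 0.51 (SE 0.18, adjusted p = 0.0462). It lowered Foxp1 by 0.58 (SE 0.17, adjusted p = 0.0179) and Sox4, a SoxC factor, by 0.34 (SE 0.10, adjusted p = 0.0245). All named calls went the same way on both days and in 4 of 4 induced arrays.

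In counts, LIF called 13 of the 45 factors (6 higher beside 11.4%, 7 lower beside 12.6%), beside 24.0% of all tested genes, and ANX called 10 (4 higher beside 11.2%, 6 lower beside 9.12%), beside 20.3%. NGAL called 0, beside 0.00%. At an unadjusted p under 0.05 the limma fit counted 4 of the factors under NGAL (Foxk1, Foxo3, Klf11 and Klf16) and 799 of the 11388 genes. Stroma markers moved with Foxd2: under LIF 10 of 14 fell and under ANX 8 of 14, Col1a1, Dcn and Meis1 in both. Their summed intensity lay between 33704 and 38016 in the 4 controls, between 16316 and 22859 in the 4 LIF arrays and between 19297 and 26618 in the 4 ANX arrays. From fresh tissue to the controls, this sum and Foxd2 did not move together. The sum was 24851 and 25392 in fresh tissue, where the Foxd2 mean, 10.44, was the highest of all groups. Endothelial markers moved with Sox7, 7 of 11 being lower under LIF. Of 5 tested neural crest and Schwann markers, 3 (Elavl4, Ngfr and Tubb3) rose under LIF, where Klf7 was called, and 2 (Ngfr and Tubb3) under ANX, where it was not. The summed intensity of the 7 on the array lay between 849.2 and 1058.6 in the controls, between 1779.6 and 2376.7 under LIF and between 1439.7 and 1916.5 under ANX. The 5S ribosomal RNA signal (log2) lay between 7.56 and 10.3 in the 4 controls, between 7.00 and 8.70 under LIF and between 7.02 and 7.47 under ANX. The part of these cells and of the 5S signal in the results was not tested.

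Foxd2, Foxk2 and Foxo3 under LIF and Foxd2, Foxn3 and Klf11 under ANX stood whichever array was left out. The counts fell to 4 without LIF day 2 replicate 1, to 6 without LIF day 1 replicate 1 and to 7 or 8 without control day 1 replicate 1 or either control of day 2 for LIF. They fell to 5 or 6 for ANX without replicate 1 of either control day or of either of its own days. Among the larger changes, Klf7 under LIF was lost without control day 1 replicate 2 (0.58) or LIF day 2 replicate 1 (0.70). Foxn3 under LIF was lost without control day 1 replicate 1 (-0.67), LIF day 1 replicate 1 (-0.62) or LIF day 2 replicate 1 (-0.64). Sox7 under LIF was lost without control day 1 replicate 1 (-0.88), control day 2 replicate 2 (-0.67), LIF day 1 replicate 1 (-0.85) or LIF day 2 replicate 1 (-0.91), and Klf12 without either replicate 1 of the controls (-0.69 and -0.62) or of LIF (-0.60 and -0.80). Foxk2 under ANX was lost without replicate 1 of the controls of day 1 (0.43) or day 2 (0.43), and Foxo3 without replicate 2 of ANX day 1 (-0.46) or day 2 (-0.41). The calls of Foxm1, Klf3, Klf15, Klf16, Tbx19, Sox2, Sox4 and Foxp1 were lost in 4 to 7 of the 8 fits that left out an array. Those of Klf16 and Tbx19 under LIF and of Foxm1 and Klf16 under ANX also ended when only the arrays compared were fitted. With the spike-in ratio as a covariate, the calls of Klf15 and Tbx19 under LIF and of Foxm1 and Sox2 under ANX were lost. That ratio (log2) was 1.97 and 0.77 in the controls of day 1 and 1.97 and 2.04 in those of day 2. It lay between 0.88 and 2.16 under LIF and between 0.84 and 2.35 under ANX on these days. With all probe sets of a gene averaged, the LIF values were smaller for Foxo3 (-0.21), Foxn3 (-0.46), Klf12 (-0.36), Klf7 (0.40), Foxk2 (0.36), Klf3 (0.33) and Foxm1 (0.13), the last 2 not passing. The ANX values so read were -0.60 for Foxn3, -0.33 for Klf11 and 0.89 for Sox2, and 0.10 for Foxm1 and -0.14 for Foxo3, neither passing.

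**Figure D3:**
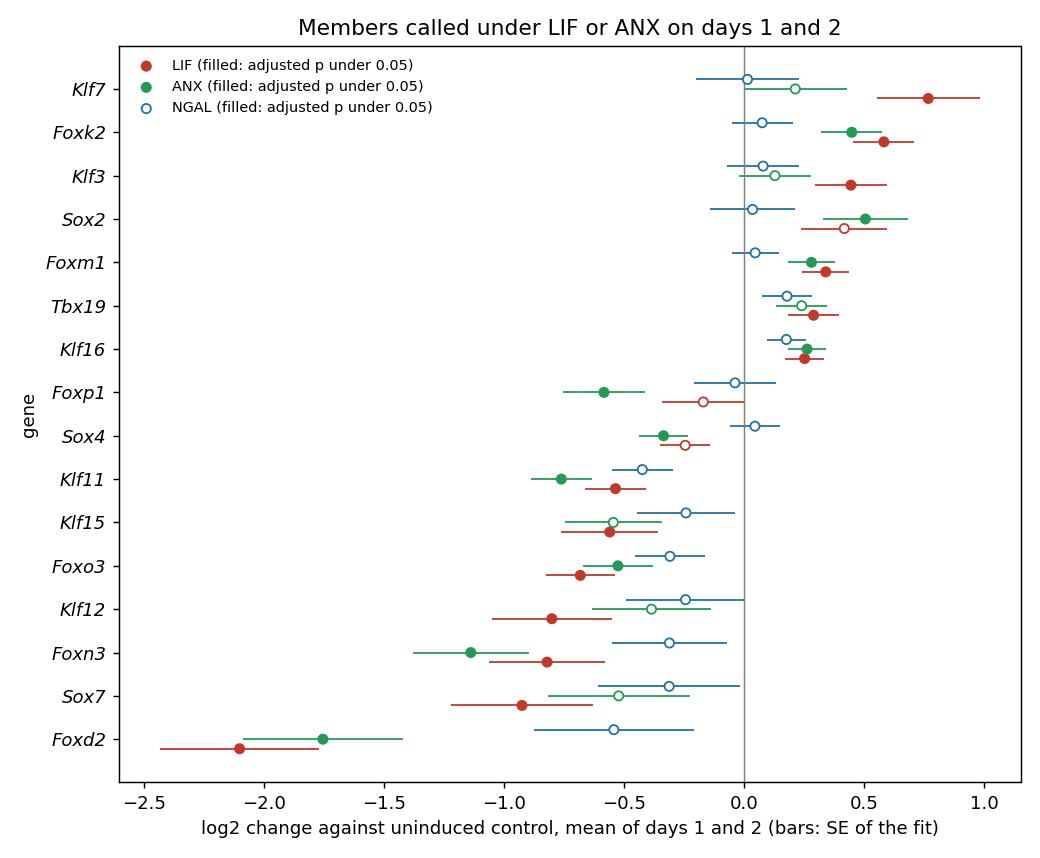
Log2 change against uninduced control, mean of days 1 and 2, with the standard error of the fit, for the 16 factors called under LIF or ANX. Filled points passed an adjusted p of 0.05. Foxd2 lies farthest to the left under LIF (-2.10) and ANX (-1.75), no NGAL point is filled, and Klf7 stands apart under LIF (0.77).

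Time under each inducer was read as day 7 against day 1, in 3 comparisons with no shared arrays. Sox7, Foxm1, Foxo3, Klf4 and Klf15 passed under all 3 inducers, each in 1 direction. Sox7, a SoxF factor of endothelium, fell steepest. It read 7.70 and 8.01 on LIF day 1 and 5.72 and 5.85 on day 7. Under NGAL it went from 8.33 and 8.15 to 6.22 and 5.31, and under ANX from 7.93 and 8.09 to 5.65 and 5.29. The changes were -2.07, -2.48 and -2.54 (SE 0.42 each, adjusted p = 0.00322, 3.77e-04 and 3.18e-04), and stood whichever array was left out. With means at the threshold they were -2.07, -2.46 and -2.22.

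Endothelial markers moved with Sox7. Their summed intensity lay between 1945 and 2698 on day 1 and between 1182 and 2351 on day 7 over the 3 inducers, and 3 of 11 (LIF), 5 of 11 (NGAL) and 6 of 11 (ANX) fell, Pecam1, Tie1 and Ramp2 in each. In fresh tissue the sum was 3858 and 4123, with Sox7 at 8.25 and 7.98. On control day 1 Sox7 was 9.08 and 8.90, above fresh tissue, while the sum was 3073 and 3947. The difference of 0.87 in Sox7 was not called. The part of vessel cells in the fall was not tested.

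Klf4 rose again with time. It went from 6.86 and 6.79 to 8.42 and 7.74 under LIF, from 6.59 and 6.94 to 8.69 and 8.31 under NGAL, and from 7.02 and 7.16 to 8.51 and 8.08 under ANX. The rises were 1.26, 1.74 and 1.20 (SE 0.29 each, adjusted p = 0.00727, 3.33e-04 and 0.00701). Every day 7 array lay above every day 1 array and below the higher fresh array. Cdh1 and Epcam, epithelial genes of the ureteric bud list, rose alongside under each inducer, and their part in the Klf4 result was not tested. Klf15, a metabolic and podocyte factor near the detection threshold on day 1, rose by 1.25, 1.54 and 1.29 (SE 0.29 each, adjusted p = 0.00718, 8.96e-04 and 0.00391), or by 0.68, 1.16 and 0.65 with means at the threshold. The NGAL value rests on 1 array that read 7.63 where its pair read 6.26.

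Foxo3 rose and Foxm1 fell under each inducer. Foxo3 went from 8.94 and 8.44 to 9.35 and 9.78 under LIF, from 9.11 and 9.02 to 10.25 and 9.63 under NGAL, and from 8.96 and 8.71 to 10.21 and 9.83 under ANX. Its rises were 0.87, 0.87 and 1.18 (SE 0.20 each, adjusted p = 0.00844, 0.0057 and 4.91e-04). Foxm1 changed by -0.82, -0.47 and -0.57 (SE 0.14 each, adjusted p = 8.03e-04, 0.024 and 0.0076). Its day 7 arrays read between 7.38 and 7.78 and its day 1 arrays between 8.05 and 8.44. Among 18 tested genes listed as targets or regulators of Foxo factors, the dehydrogenase kinase Pdk4 and the repressor Bcl6 rose under all 3 inducers. In that list 2 rose and 0 fell under LIF, beside 4.39% and 6.51% of all tested genes. Under NGAL 4 rose and 0 fell, beside 6.92% and 8.60%. Under ANX 4 rose and 1 fell, beside 6.40% and 7.43%. The part of Foxo3 in these changes was not tested.

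Other factors passed under 1 or 2 inducers. Klf5 rose under NGAL from 6.96 and 7.76 to 10.12 and 8.95, by 2.17 (SE 0.45, adjusted p = 0.00218), while its differences under LIF (-0.13) and ANX (0.04) started from higher day 1 levels (8.55 and above under LIF, 8.69 and 7.95 under ANX) and were not called. Klf13 rose by 2.40 under NGAL (SE 0.62, adjusted p = 0.00997). Sox4 fell by 0.66 (SE 0.15, adjusted p = 0.00424), Foxk2 by 0.54 (SE 0.18, adjusted p = 0.0432) and Sox13 by 0.47 (SE 0.15, adjusted p = 0.0309) under NGAL. Under ANX, Foxp1 rose by 1.10 (SE 0.24, adjusted p = 0.00332) and Klf11 by 0.59 (SE 0.18, adjusted p = 0.0309), while Gata6 fell by 1.53 (SE 0.40, adjusted p = 0.0113), Foxd2 by 1.44 (SE 0.47, adjusted p = 0.0427) and Sox13 by 0.44 (SE 0.15, adjusted p = 0.0476). Foxq1, with group means of 5.15 to 5.88 over the series, rose by 0.53 under LIF and 0.61 under ANX, or by 0.08 and 0.10 with means at the threshold.

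In counts, 6 of the 45 passed under LIF, beside 10.9% of all tested genes (4 higher beside 4.39%, 2 lower beside 6.51%). Under NGAL 10 passed, beside 15.5% (5 higher beside 6.92%, 5 lower beside 8.60%). Under ANX 11 passed, beside 13.8% (6 higher beside 6.40%, 5 lower beside 7.43%). An F-test asked whether the course over the 6 days differed between inducers. It called 0 of the 45 factors and 4 of all genes (0.0351%) with limma, and at an unadjusted p under 0.05 it counted 4 factors (Klf5, Sox2, Foxn2 and Sox4) and 660 genes. The adjusted p of Klf5 in that test was 0.552.

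When only the 4 arrays of an inducer were fitted, 17 of the 27 day 7 calls ended. By limma the adjusted p was then 0.201 for Foxm1, 0.241 for Foxo3, 0.14 for Klf15 and 0.177 for Klf4 under LIF, where Foxq1 was lost too. Under NGAL it was 0.271 for Foxm1, 0.17 for Foxo3, 0.17 for Klf15, 0.102 for Klf5 and 0.092 for Sox4, and Foxk2 and Sox13 were lost too. Under ANX it was 0.111 for Foxm1 and 0.107 for Foxd2, and Foxq1, Klf11 and Sox13 were lost too. Sox7 under each inducer, Klf4 and Klf13 under NGAL, and Foxo3, Klf4, Klf15, Foxp1 and Gata6 under ANX passed in that fit. In the fit of all arrays, the count of calls fell to 3 without LIF day 1 replicate 2, to 2 without NGAL day 7 replicate 1, to 5 without NGAL day 1 replicate 2, and to 5 or 6 for ANX without its first array of day 1 or either of day 7. Foxm1 under LIF, Klf4 under NGAL, and Foxo3 and Klf15 under ANX stood whichever array was left out. Klf4 was lost under LIF without day 1 replicate 2 (1.23) or day 7 replicate 1 (0.92), and under ANX without replicate 1 of day 1 (1.13) or of day 7 (0.98). Foxo3 was lost without replicate 2 of LIF day 1 (0.62) or day 7 (0.66), NGAL day 1 replicate 2 (0.83) or NGAL day 7 replicate 1 (0.57). Foxm1 was lost under NGAL without day 1 replicate 2 (-0.37) or day 7 replicate 1 (-0.42), and under ANX without the first array of day 1 (-0.46) or the second of day 7 (-0.52). Klf15 was lost without LIF day 1 replicate 1 (1.19) or NGAL day 7 replicate 1 (0.86). Without the latter array Klf5 (1.59), Klf13 (2.11), Sox4 (-0.59), Foxk2 (-0.33) and Sox13 (-0.34) were lost too, and Klf13 (2.22), Foxk2 (-0.35) and Sox13 (-0.48) without NGAL day 1 replicate 2. Sox13 was also lost without NGAL day 1 replicate 1 (-0.47). Foxp1 under ANX was lost without ANX day 7 replicate 2 (0.95). Of the other calls under ANX, Foxd2 (-2.07 to -0.80), Gata6 (-1.64 to -1.42), Klf11 (0.35 to 0.82) and Sox13 (-0.63 to -0.25) were each lost in 3 of 4 such fits and Foxq1 (0.54 to 0.67) in 4, and Foxq1 under LIF (0.35 to 0.72) in 3. As means of probe sets, Foxo3 differed by 0.27 (LIF) and 0.25 (NGAL), neither passing, and by 0.38 (ANX), where Gata6 read -0.89 and Klf11, not passing, 0.22. The other probe sets of Foxo3 had no group mean above the threshold. The spike-in ratio (log2) went from 1.11 and 1.37 on day 1 to 1.19 and 2.30 on day 7 under LIF. Under NGAL it went from 1.63 and 0.91 to 1.32 and 1.97, and under ANX from 0.88 and 0.84 to 1.17 and 2.20. With this ratio as a covariate, the call of Foxk2 under NGAL was lost and the other day 7 calls stood.

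**Figure D4:**
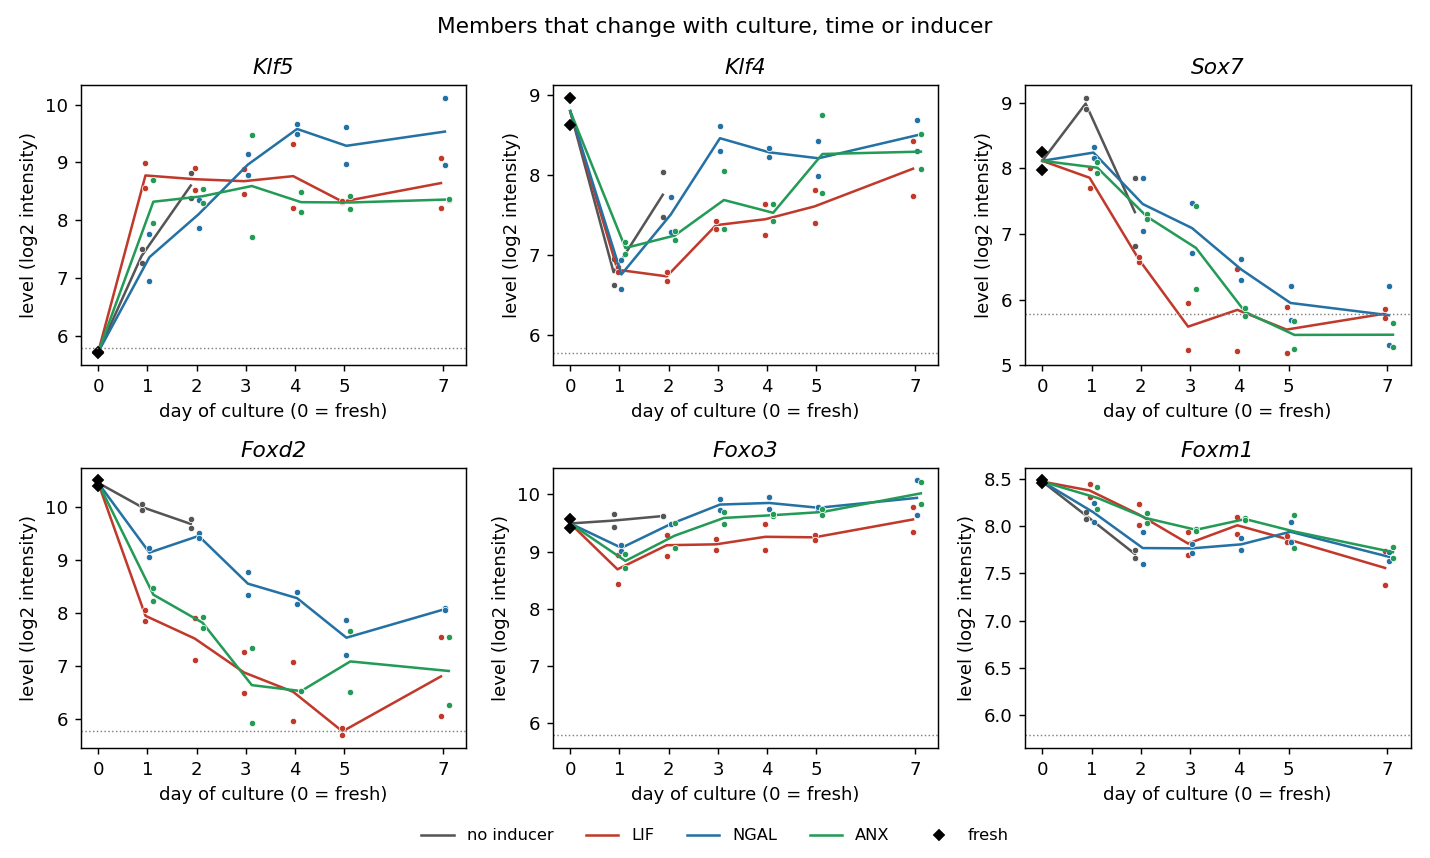
Level (log2 intensity) of Klf5, Klf4, Sox7, Foxd2, Foxo3 and Foxm1 by day of culture, with a point for each array and a line through the mean of each pair, by inducer. Diamonds on day 0 are fresh tissue and the dotted line is the threshold of 5.79. Klf5 leaves fresh tissue (5.71 and 5.73) upward in all cultures, Klf4 dips on day 1 and returns, Sox7 nears the threshold by day 7, and Foxd2 lies lowest under LIF and ANX.

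Inducers were also compared with each other over all 6 days, each day against the same day. The 3 comparisons share arrays in pairs, and their values are given side by side. Foxd2 stood lower under LIF than under NGAL on every day without overlap. On day 5 it read 5.84 and 5.70 under LIF, 7.20 and 7.86 under NGAL, and 6.51 and 7.66 under ANX. The mean difference was -1.60 for LIF against NGAL (SE 0.19, adjusted p = 1.31e-06), 1.28 for NGAL against ANX (SE 0.19, adjusted p = 2.76e-05) and -0.31 for LIF against ANX (SE 0.19, adjusted p = 0.379). Foxd2 was lower than the NGAL mean of the day in 12 of 12 LIF arrays.

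Sox11, a SoxC factor of progenitors, was highest under LIF. On day 5 it read 9.63 and 9.55 under LIF, 8.38 and 8.47 under NGAL, and 8.75 and 8.87 under ANX. LIF exceeded NGAL by 0.83 (SE 0.10, adjusted p = 9.42e-07), with all 12 LIF arrays above all 12 NGAL arrays, and exceeded ANX by 0.51 (SE 0.10, adjusted p = 0.00314). NGAL differed from ANX by -0.32 (SE 0.10, adjusted p = 0.0113), with 9 of 12 NGAL arrays below the ANX mean of the day and not 1 sign on every day. Its relative Sox4, also SoxC, differed by -0.07, -0.01 and 0.06 in the same order in the set used, none of them called. Other Sox4 sets, which were not tested, disagreed. In the same order, a set read -0.10, 0.58 and 0.68, another -0.02, -0.35 and -0.34, and another -0.02, -0.05 and -0.03. Sox6, a SoxD factor, was higher under LIF than NGAL by 0.74 (SE 0.15, adjusted p = 3.6e-04), or by 0.43 with means at the threshold. It reached 7.25 and 6.75 on LIF day 5, where NGAL read 5.74 and 5.38.

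Klf7, Foxk2 and Klf3 were higher under LIF as well. Klf7 exceeded NGAL by 0.58 (SE 0.12, adjusted p = 6.26e-04) and ANX by 0.56 (SE 0.12, adjusted p = 0.00898), while NGAL and ANX differed by -0.02. Foxk2 was higher under LIF than NGAL by 0.52 (SE 0.07, adjusted p = 8.68e-06), and NGAL differed from ANX by -0.40 (SE 0.07, adjusted p = 2.3e-04). Klf3, a repressor, exceeded NGAL by 0.38 (SE 0.09, adjusted p = 9.85e-04) in 12 of 12 LIF arrays.

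Klf6, Gata6, Gata3, Klf4, Foxo3 and Klf10 were lower under LIF than NGAL. Klf6, an injury-induced factor, read 8.51 and 9.28 on LIF day 7, 10.02 and 10.08 under NGAL, and 7.70 and 9.16 under ANX. LIF differed from NGAL by -1.13 (SE 0.27, adjusted p = 0.0018), and NGAL was above ANX by 1.21 (SE 0.27, adjusted p = 0.00137). Against ANX, 11 of 12 NGAL arrays lay above the mean of the day, but the sign was not the same on every day. Gata6, of mesenchyme and muscle, read 6.17 and 6.70 on LIF day 7 and 8.18 and 7.43 under NGAL, and differed by -0.92 (SE 0.16, adjusted p = 8.89e-05). For LIF against NGAL a second Gata6 set, which was not tested, read 0.14. Foxo3 differed by -0.49 (SE 0.08, adjusted p = 6.61e-05), Klf4 by -0.61 (SE 0.12, adjusted p = 2.28e-04), Gata3 by -0.56 (SE 0.18, adjusted p = 0.0134; -0.47 with means at the threshold) and Klf10, a TGF-beta early response gene, by -0.36 (SE 0.09, adjusted p = 0.00286). Klf4 was below the NGAL mean of the day in 10 of 12 LIF arrays, and on day 1 its mean was slightly higher under LIF. Foxc1 differed by -0.46 (SE 0.11, adjusted p = 0.00182). Between NGAL and ANX, Foxc2 differed by -0.80 (SE 0.22, adjusted p = 0.00729), whereas Foxn3 was higher by 0.49 (SE 0.14, adjusted p = 0.00851) and Klf12 by 0.48 (SE 0.14, adjusted p = 0.0107).

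LIF against NGAL called 21 of the 45, beside 41.7% of all tested genes (7 higher beside 21.5%, 14 lower beside 20.3%). NGAL against ANX called 11, beside 37.5% (5 higher beside 15.3%, 6 lower beside 22.2%). LIF against ANX called 5, beside 5.01% (2 higher beside 1.63%, 3 lower beside 3.37%): Klf7 and Sox11 higher, and Foxo3 by -0.34 (SE 0.08, adjusted p = 0.0178), Foxj2 by -0.27 (SE 0.07, adjusted p = 0.0264) and Sox13 by -0.23 (SE 0.06, adjusted p = 0.0238) lower. Stroma markers moved with Foxd2, Klf6 and Gata6: under LIF against NGAL 13 of 14 were lower and 1 (Tcf21) higher, and under NGAL against ANX 11 were higher and 2 lower. Skeletal muscle markers moved the same way, 5 of 7 lower under LIF than NGAL and 7 of 7 higher under NGAL than ANX. Of 9 progenitor markers, 5 were higher and 1 lower under LIF than NGAL, with Sox11, as were 3 of 5 tested neural crest and Schwann markers (Elavl4, Ngfr and Tubb3). The part of cell makeup in these differences was not tested.

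With 1 array left out, LIF against NGAL kept 18 to 22 calls. LIF against ANX went to 2 without ANX day 2 replicate 1, to 3 without LIF day 2 replicate 2, LIF day 4 replicate 1 or LIF day 7 replicate 1, to 9 without ANX day 3 replicate 1 and to 8 without ANX day 4 replicate 2, and NGAL against ANX went to 17 without ANX day 3 replicate 2. The values named for LIF against NGAL and NGAL against ANX above stood in all of these fits. Foxj2 (-0.33 to -0.22), Sox13 (-0.27 to -0.20) and Foxo3 (-0.38 to -0.30) against ANX were lost in 7, 6 and 3 of 24, and all 3 when only the arrays compared were fitted, as was Klf15 for LIF against NGAL. As means of their probe sets, LIF against NGAL read -0.39 for Gata6, -0.36 for Gata3, -0.14 for Foxo3, 0.28 for Klf7, 0.27 for Foxk2 and, not passing, -0.22 for Foxc1. So read, NGAL against ANX gave 0.79 for Klf6, -0.26 for Foxk2, 0.21 for Foxn3 and 0.23 for Klf12, and LIF against ANX gave 0.20 for Klf7 and, not passing, -0.14 for Foxo3 and -0.16 for Foxj2. Gata6 also differed between NGAL and ANX by 0.42 (SE 0.16, adjusted p = 0.0439), a call that was lost in 17 of 24 fits (0.27 to 0.57) and with only the arrays compared, and whose sign was the same on 3 of 6 days.

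**Figure D5:**
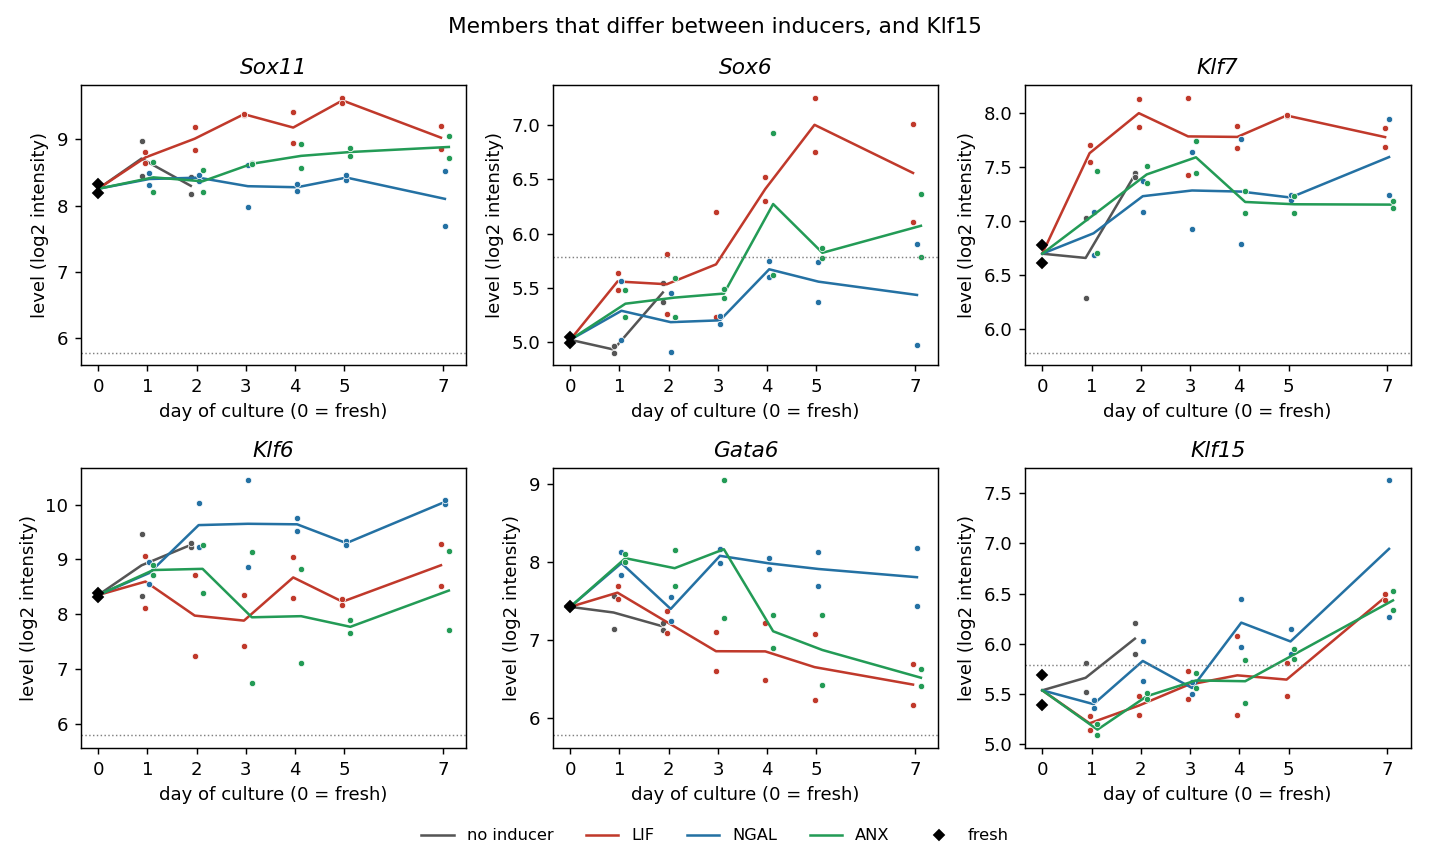
Level (log2 intensity) of Sox11, Sox6, Klf7, Klf6, Gata6 and Klf15 by day of culture, with a point for each array and a line through the mean of each pair, by inducer. Diamonds on day 0 are fresh tissue and the dotted line is the threshold of 5.79. Sox11, Sox6 and Klf7 lie highest under LIF, Klf6 and Gata6 lie highest under NGAL on day 7, and Klf15 rises late under each inducer.

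Several genes had more than 1 probe set, and some of these disagreed. The 64 genes had 123 probe sets, 41 of which had no group mean above the threshold. Where such sets are averaged in, the mean over a gene's sets is drawn toward no change. In other genes the sets averaged in rose above the threshold and read differently. A second Foxm1 set read -0.07 under LIF and -0.07 under ANX against the controls, beside 0.34 and 0.28. For LIF against NGAL, a second Foxc1 set read 0.01 beside -0.46. Other Klf11 sets read 0.01 and -0.07 under LIF against the controls, beside -0.54. Klf2, a shear stress factor of endothelium, was read from a set that differed from fresh tissue by -0.30 on control day 1 and was never called. A second Klf2 set with a lower mean read -1.76 there and -1.54 on control day 2, and its levels correlated with the first at 0.02 over the 42 arrays. Another, with a mean below both, read -2.09 and -2.07. For Sox2, a second set read 1.76 under LIF and 2.30 under ANX against the controls, where the set used read 0.42 and 0.51. For Foxc2 on control day 2, a second set read -2.81 beside -1.76. Tbx3 was never called, but a set with a highest group mean of 5.88 read 1.39 under ANX against the controls, beside 0.18. On ANX day 7 against day 1 that Tbx3 set read -1.79 beside -0.22. For Tbx2, also never called, a second set read 0.67 and -0.999 in these comparisons, beside 0.45 and -0.69. Another Tbx2 set read 0.28 and -0.19. A second Gata6 set, with a highest group mean of 6.07, correlated with the set used at -0.0049. It read 0.14 for LIF against NGAL, beside -0.92, and -0.10 for NGAL against ANX, beside 0.42. On ANX day 7 against day 1 it read -0.26 beside -1.53. For Klf5 on control day 2, the 3 sets above the threshold read 2.88, 2.60 and 3.28. These values of other sets were not tested.

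The partner and target lists are given for the comparisons with the most calls, where 41.7% (LIF against NGAL) and 37.5% (NGAL against ANX) of all tested genes were called. Of 18 Foxo targets and regulators, 2 were higher and 7 lower under LIF than NGAL (50.0% called), the kinases Akt1 and Akt2 among the lower, and 7 were higher and 5 lower under NGAL than ANX (66.7%). Of 8 tested Gata cofactors, 0 were higher and 3 lower (Ldb2, Lmo2 and Lmo4; 37.5%) under LIF than NGAL, and 2 higher and 2 lower under NGAL than ANX (50.0%). Of 8 tested Sox9 targets, 2 (the cartilage collagens Col9a1 and Col9a2) were higher under LIF than NGAL (25.0%), and 4 were lower under NGAL than ANX (50.0%). Of 8 tested Sox partners, 1 (Pax2) was higher and 2 (Lef1 and Tcf7l1) lower, then 1 higher and 2 lower (37.5% each). Of 8 tested Sp and Klf partners 1 was lower (12.5%), then 1 higher and 1 lower (25.0%). Of 9 tested Fox partners 1 (Gli2) was lower (11.1%), then 1 higher and 1 lower (22.2%). Of 2 tested T-box relatives 0 were called, then 1. The median changes of these lists lay between -0.22 and 0.17 and between -0.18 and 0.67, beside 0.03 and -0.04 over all tested genes. On day 7 against day 1, Lef1, a nuclear partner of beta-catenin, fell and the POU factor Pou3f3 rose under all 3 inducers.

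The other 19 factors had no group mean above the threshold and were not tested. They were Foxa1, Foxa2, Foxa3, Foxd3, Foxd4, Foxe1, Foxi1, Foxi2, Foxj1, Foxr1, Foxs1, Gata5, Sox1, Sox3, Sox12, Sox15, Sox21, Tbx4 and Tbx5. Their highest group mean was 5.49 (Foxd3), and their group means ranged over 0.24 (Foxj1) to 0.96 (Gata5, whose highest mean, 4.88, was in fresh tissue). Whether a change at these signals differs from background was not tested. Gata5 differed from fresh tissue by -0.77 on control day 1 and -0.86 on control day 2, with a standard deviation between replicates of 0.118. The tested factors nearest above the threshold were Foxq1, whose highest group mean was 5.88, Gata4 at 6.01 and Foxk1 at 6.06.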

How the data were processed

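Each array was an Affymetrix rat genome chip. Per the labels and the submitters' processing notes, the authors summarized probe sets by robust multichip analysis (RMA, version not given in the sources used here) and deposited 1 linear intensity value per probe set and array, already normalized between arrays. Here log2 of the deposited intensity was taken. Of 31099 probe sets, 20832 named 1 gene, 436 several and 9831 none, and those of 1 gene were used. A linear model with a mean for each of the 21 groups (21 residual degrees of freedom) was fitted to all 11388 tested genes with limma 3.58.1 in R 4.3.3, p-values were adjusted over all of them by the Benjamini-Hochberg method, and the fit was tested on simulated data. All groups shared 1 estimate of the spread. A group mean under the threshold was also set to it, as stated. Named were, in each comparison, the up to 6 called factors that rose or fell most without overlap (or with 1 sign on every day), plus 20 chosen in every case. The members, gene lists and tests were chosen with earlier results of these data known. Lists of markers and partners are described by counts. The lists of macrophage, neural crest and cartilage markers had 5, 0 and 0 tested members lower and 0, 3 and 2 higher under LIF than NGAL. Alternatives were other filters, repeated quantile normalization, probe set means, the spike-in ratio as a covariate, a replicate block, fits of the compared arrays alone and leaving out each array.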

Additional observations from a re-analysis of the deposited data

Results flagged for a closer look

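Foxk1 and Sox4 moved in opposite directions under different inducers between day 1 and day 7, with every array of one inducer lower and every array of the other higher. Foxk1 differed by -0.11 under LIF and by 0.12 under NGAL, beside a standard deviation between replicates of 0.163. Its group mean lay above the threshold in 15 of the 21 groups. Sox4 differed by -0.66 under NGAL and by 0.15 under ANX. Each change was tested within its inducer, but the difference between the inducers in this change was not tested on its own. The F-test over the 6 days and 3 inducers gave an adjusted p of 0.853 for Sox4 and 1 for Foxk1 (limma), and of these 4 changes the fall of Sox4 under NGAL was called.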

How the results depend on the processing

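Of the 91 named gene results, 37 were called in every fit run and 52 were lost in at least 1 fit that left out an array. No direction reversed. Calls lost numbered 8 with no filter, 3 with repeated quantile normalization, 8 with the spike-in ratio as a covariate, 13 of 81 when a gene's probe sets were averaged and 0 of 78 with the stricter filter. Where only the arrays compared were fitted, 28 were lost, and the factors called numbered 29 on control day 2 (9 in the fit of all arrays), 1 for LIF day 7 (6), 3 for NGAL day 7 (10), 6 for ANX day 7 (11) and 2 for LIF against ANX (5). That fit has 2 residual degrees of freedom in comparisons of 2 groups. Leaving out 1 array, the counts ranged from 1 to 4 on control day 1, 4 to 5 on control day 2, 4 to 12 for LIF and 5 to 8 for ANX against control, 3 to 9, 2 to 12 and 5 to 8 for LIF, NGAL and ANX day 7, 18 to 22 for LIF against NGAL, 2 to 9 for LIF against ANX and 8 to 17 for NGAL against ANX. They stayed 0 for NGAL against control and for the F-test.

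With the replicate number as a block, the counts were 4, 11, 13, 0, 12, 6, 11, 13, 22, 5 and 13 in the order of the comparisons (controls of days 1 and 2, LIF, NGAL and ANX against control, the same inducers on day 7, LIF against NGAL, LIF against ANX, NGAL against ANX) and 0 for the F-test, and no named call was lost. The replicates share a number only: deviations of same-numbered arrays correlated at -0.65 to 0.74 (median 0.07) over 210 pairs of groups, 88 of them above 0.1. Quantile normalization shifted the median of all genes by at most 0.055. Signals near the threshold limit Klf15, Gata2, Sox6, Foxq1, Foxk1 and Tbx19.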
